A study of Homo sapiens with 4 samples.

Results

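NRF2, glutathione and redox genes are the genes with which a cell senses oxidants, makes and recycles its thiol reductants and disposes of peroxides, quinones and free iron. A fixed set of 55 symbols was taken by name from the 55764 gene names measured, and all 55 were present. TE5 is a cell line derived from a human oesophageal squamous cell carcinoma, and RNA from 4 TE5 libraries was sequenced in bulk. The 2 ETS1 libraries came from cells that stably overexpress the transcription factor ETS1 from a CMV-promoter vector. The 2 control libraries, given the genotype WT in the labels, came from cells that carry the vector backbone. The protocol describes lentiviral particles made in HEK293T cells with the pMD2.G and pPAX2 packaging plasmids and applied to the target cells with Polybrene. Whether a culture was a pool or a clone is not given in the sources used here. Nothing in the labels says that libraries 1 and 2 of a group were separate cultures, so p-values measure only the spread between these libraries, which may be technical.

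NRF2, encoded by NFE2L2, is a transcription factor that KEAP1 holds in the cytoplasm and marks for degradation. When oxidants or electrophiles modify KEAP1, NRF2 accumulates, pairs with a small MAF protein and binds antioxidant response elements near its target genes. BACH1 pairs with the same small MAF proteins and represses many of these targets, above all the heme oxygenase gene HMOX1. Squamous carcinomas of the oesophagus often carry mutations that activate NRF2.

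Levels are given in FPKM, a unit that divides fragments by gene length and library size and so lets genes be compared with each other. Recovered reads came to 40356480 and 44119735 for the controls, and the ETS1 libraries were deeper, at 57270000 and 56502587. ETS1 itself was at 0.491 and 0.509 FPKM in the controls and 1.84 and 1.87 FPKM in the ETS1 libraries, a log2 change of 0.93 on the log2(FPKM + 1) scale (limma, adjusted p 0.000704). With 0.1 FPKM added in place of 1 the change was 1.70, with voom on recovered reads it was 1.86, and it is 1.84 in the authors' deposited table. Taken alone, its 4 values reach only p 0.333 in a two-sided exact permutation test, which is as low as 2 against 2 can go. The 5 epithelial markers examined summed to between 16.1 and 16.9 FPKM per library. Of these, 3 of 5 had a mean of at least 1 FPKM and 1 was under 0.1 FPKM in each library. The highest was KRT18, at a mean of 9.36 FPKM. All 4 squamous markers examined, KRT5, KRT14, KRT6A and TP63, were under 0.1 FPKM in each library, so the squamous label was not borne out by these markers. Of the other cell types' markers, fibroblast genes summed to 2.28 and 2.13 FPKM in the controls and to 3.09 and 3.19 FPKM in the ETS1 libraries, without overlap (1 of 6 at a mean of at least 1 FPKM, COL1A1). The 4 immune genes used summed to between 0.348 and 0.383 FPKM (0 of 4) and endothelial genes to at most 0.0506 FPKM. The part of such cells in the results was not tested. In bulk RNA, a lower level can mean fewer cells with a transcript or less of it per cell, and these cannot be told apart.

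The redox genes spanned a very wide range of levels, with the direct thiol and iron proteins at the top and several classical NRF2 targets near 0. FTL, the light chain of the iron store ferritin, had 543 and 572 FPKM in the controls, and TXN, the cytosolic thioredoxin, had 592 and 571 FPKM. In all, 8 genes had a mean above 100 FPKM over the 4 libraries, the others being PRDX5, PRDX1, SOD1, GPX4, PRDX6 and GPX1. At the other end, NQO1, a quinone reductase and the usual reporter of NRF2 activity, stood at 2.24 and 2.35 FPKM in the controls and 2.41 and 2.25 FPKM in the ETS1 libraries, at percentile 21.2 of the tested genes. The aldo-keto reductases AKR1C1, AKR1C2, AKR1C3 and AKR1B10, which are strongly induced where NRF2 is active, were at most at 0.141 FPKM in any library. Against the median tested gene at 6.33 FPKM, NFE2L2 itself was close to the middle, at 7.87 and 7.77 FPKM in the controls.

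**Figure D1:**
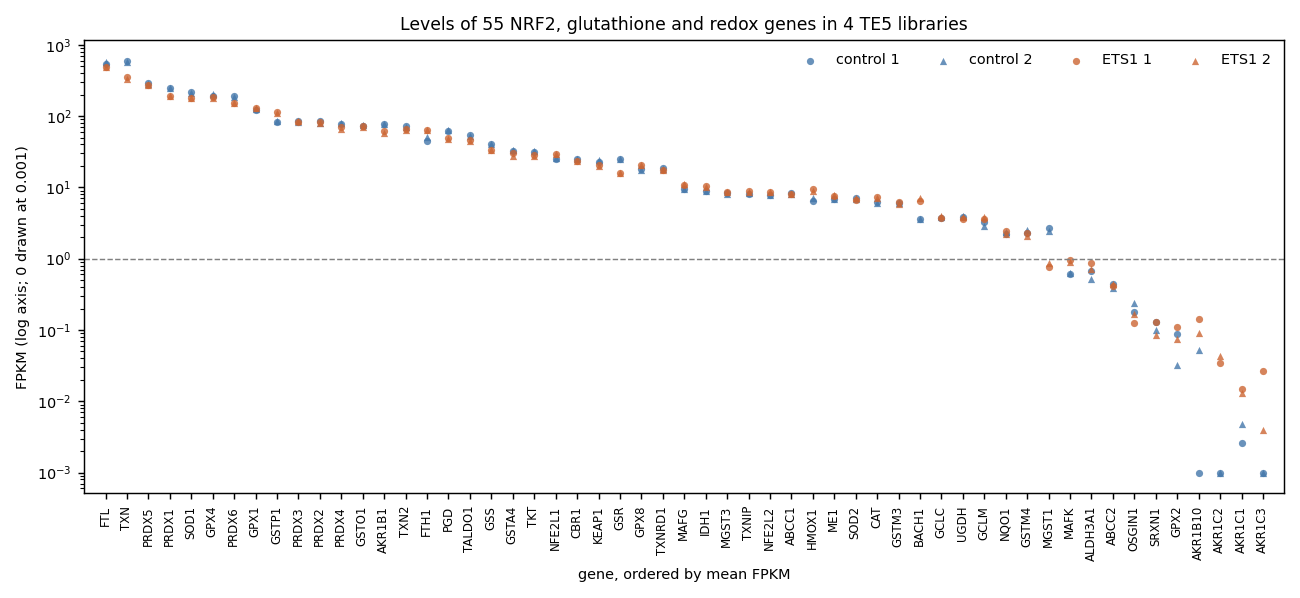
FPKM of the 55 genes in each of the 4 libraries on a log axis, ordered by mean level (blue, control; orange, ETS1; circle, library 1; triangle, library 2; dashed line, 1 FPKM; values of 0 drawn at 0.001). FTL and TXN lie highest, TXN, BACH1, GSR and MGST1 show a visible gap between the groups, and the AKR1C genes lie under 0.1 FPKM.

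Of the 55 genes, 45 had a mean of at least 1 FPKM over the 4 libraries and were tested. In the ETS1 libraries 12 were higher and 17 lower at an adjusted p under 0.05 in limma, and 16 did not pass. Over all 14306 tested genes the share called was 59.1%, with 30.7% higher and 28.4% lower, so a call was common everywhere. Among the redox genes the shares were 64.4%, 26.7% and 37.8%. The median log2 change was -0.059 over the tested redox genes and 0.016 over all tested genes. Only 1 called gene, MGST1, differed by 2-fold or more in FPKM. A change of at least 0.3 on the log2 scale was called for 11 of the 45, where 29.8% of all tested genes had one. The groups did not overlap for 37 of the 45 genes, 15 higher and 22 lower, where the shares over all tested genes were 82.0%, 43.1% and 38.9%. The authors' deposited table gives an adjusted p for 47 of the 55, of which 11 were higher and 17 lower at the same threshold, where 51.2% of all genes were called, 25.3% higher and 25.9% lower.

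The balance of higher and lower calls depended on the scaling. Quantile normalization, which forces the libraries to one distribution, gave 14 higher and 11 lower, where 29.6% and 27.2% of all tested genes were. Subtracting each chromosome's median change, which drops SOD2 for want of a position, gave 7 higher and 21 lower of 44, where 30.2% and 31.2% of all genes were. Level moved with direction as well. Of the 17 tested redox genes with a mean of at least 50 FPKM, 9 were lower and 2 higher, where 60.6% and 15.1% of all 939 tested genes at that level were. Of the 28 below it, 8 were lower and 10 higher, where 26.1% and 31.8% of all such genes were. The part of level in the individual changes was not tested.

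**Figure D2:**
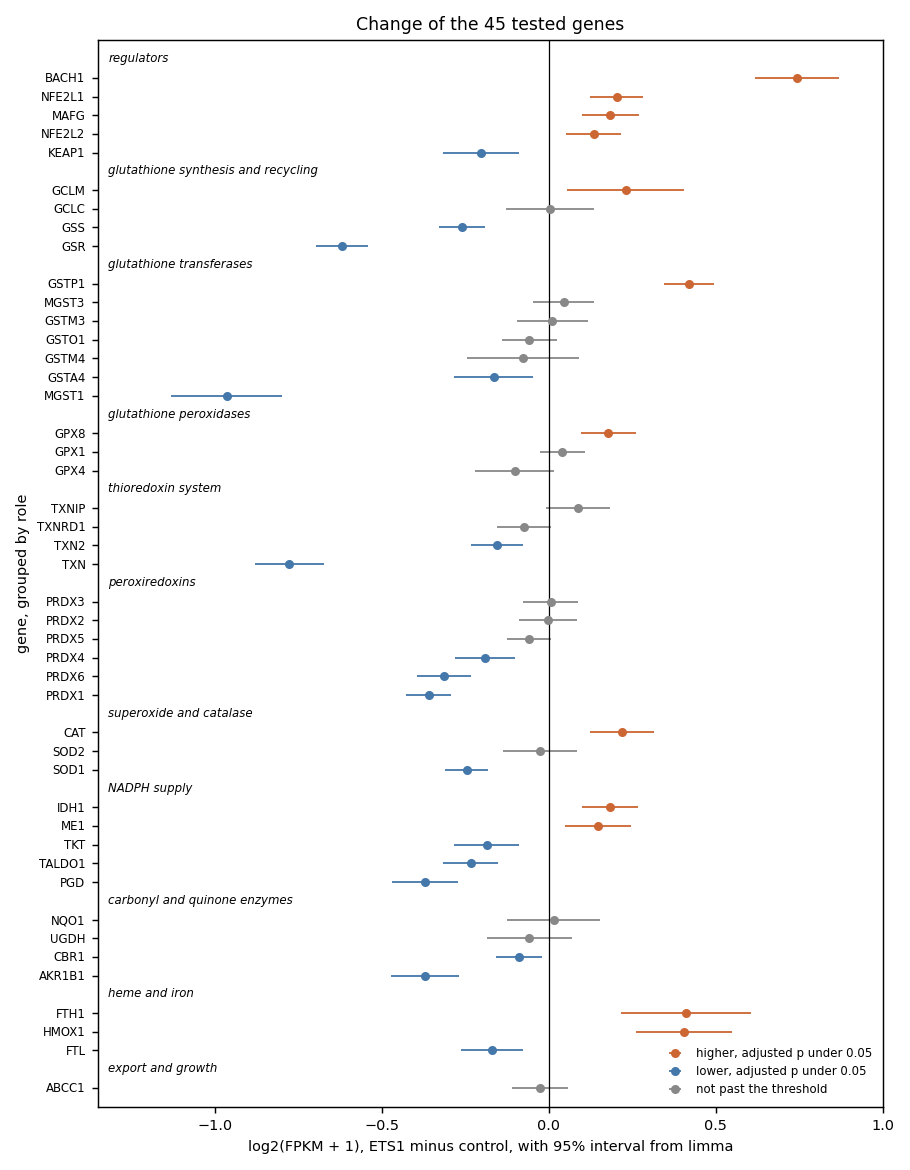
Change of each of the 45 tested genes on the log2(FPKM + 1) scale, ETS1 minus control, with its 95% interval from limma, grouped by role (orange, higher; blue, lower; grey, not past the threshold). MGST1, TXN and GSR lie farthest to the left and BACH1 farthest to the right.

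Antioxidant response elements were looked for in the RefSeq promoter table (GRCh38.p14), which holds 250 bases before and 50 after a start. It gave a promoter for 43 of the 55 genes. A gene can have several starts there, and a match at any of them was counted. The shares below therefore also depend on how many starts a gene has. A start named below is that of the window with the site. The core TGACNNNGC, read on both strands (GCNNNGTCA on the other), occurred in 12 of the 43 (27.9%), and in 16.1% of the 27305 symbols of the table. It occurred in 4 of the 10 higher genes with a promoter, in 5 of the 11 lower genes and in 2 of the 15 tested genes that did not pass, so genes with a match were found on both sides. The sites before the start of the called genes follow, so that the direction of each gene can be read beside its letters. Each has up to 10 bases on either side, the match is in capitals, and the strand is that of the gene:
GSTP1: gccggcgccgTGACTCAGCactggggcgg
ME1: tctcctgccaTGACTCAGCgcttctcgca
IDH1: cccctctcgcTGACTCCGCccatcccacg
GCLM: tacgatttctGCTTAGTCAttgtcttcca
PGD: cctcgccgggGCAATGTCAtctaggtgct
KEAP1: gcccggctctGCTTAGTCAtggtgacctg
CBR1: tgcgggttctGCAAAGTCAggctagctgg
GSTA4: ccgggaccgcTGACCTGGC

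The first 4 of these genes were higher in the ETS1 libraries and the last 4 lower. GSTP1 and ME1, both higher, carried the same 9 letters, TGACTCAGC, at chr11:67583736-67583764 (66 bases before the start) and chr6:83431170-83431198 (137 bases before). GCLM, higher, and KEAP1, lower, also shared 9 letters, GCTTAGTCA. The sites of IDH1 and GCLM lay at chr2:208255196-208255224 and chr1:93909446-93909474. Among the lower genes, PGD had its site at chr1:10398853-10398881, 201 bases before the start, CBR1 at chr21:36069855-36069883 and GSTA4 at chr6:52995285-52995303, where the window ends at the start. KEAP1 had the site shown at chr19:10502784-10502812 and another, TGACACGGC, with its first base 54 bases before the start. In GENCODE 29 the windows of ME1 and CBR1 lay outside the gene, those of IDH1 and PGD in an intron of some transcript, and those of GCLM, GSTP1, KEAP1 and GSTA4 touched an exon of some transcript. The fifth lower gene with a match, MGST1, had it after its start. An ETS consensus, CCGGAAGT on either strand, matched 0 of the 43 genes with a promoter and 4.9% of all symbols. This says only that these letters are not in these windows. A match is a description of letters and was not tested for binding.

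Among the regulators, the repressor BACH1 had the largest change. BACH1 (chromosome 21, 29194071 to 29630751, plus strand, GENCODE 29 on GRCh38) had 3.61 and 3.63 FPKM in the controls and 6.45 and 7.01 FPKM in the ETS1 libraries. Both ETS1 values lay well above both controls, a ratio of 1.86 in FPKM and a log2 change of 0.74 (95% interval 0.62 to 0.87, adjusted p 0.000684). It stayed past the threshold under all 14 alternative analyses, with log2 changes between 0.66 and 0.88. BACH1 rose from 0.459 and 0.467 of the NFE2L2 level in the controls to 0.745 and 0.806 of it in the ETS1 libraries.

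NFE2L2, which encodes NRF2 (chromosome 2, 177227595 to 177392697, minus strand), had 7.87 and 7.77 FPKM in the controls and 8.66 and 8.69 FPKM in the ETS1 libraries. The groups did not overlap, but the log2 change was only 0.13 (adjusted p 0.0192), and the call was lost under 6 of 14 alternatives, among them the authors' deposited table (adjusted p 0.0858) and removal of the chromosome median (0.044, adjusted p 0.278). Leaving out control library 2 or either ETS1 library also ended it. KEAP1, the sensor that holds NRF2 back, went the other way (chromosome 19, 10486120 to 10503741, minus strand), with 22.7 and 24.4 FPKM in the controls and 20.6 and 20.1 FPKM in the ETS1 libraries. Its log2 change was -0.20 (adjusted p 0.0141), and it was lost with no filter on low genes (adjusted p 0.0608) and without ETS1 library 2 (adjusted p 0.0700). The levels of KEAP1 were 2.88 and 3.15 times those of NFE2L2 in the controls and 2.37 and 2.31 times in the ETS1 libraries.

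NFE2L1, a relative of NRF2 that controls proteasome genes, rose from 24.9 and 25.8 to 29.3 and 29.4 FPKM, a log2 change of 0.20 (adjusted p 0.00482). MAFG, a small MAF partner of both NRF2 and BACH1, rose by 0.18 on the log2 scale (adjusted p 0.00814), although not without ETS1 library 2 (adjusted p 0.0631). MAFK, another small MAF gene, was under the filter at 0.604 and 0.639 FPKM in the controls and 0.953 and 0.910 FPKM in the ETS1 libraries, from 109, 126, 244 and 230 reads. In the authors' deposited table MAFK has a log2 change of 0.44 (adjusted p 0.0206). Of the 5 tested regulators 4 were higher and 1, KEAP1, lower, where 30.7% and 28.4% of all tested genes were.

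The heme and iron genes split. HMOX1 (chromosome 22, 35380361 to 35394214, plus strand), which degrades heme and releases its iron, had 6.46 and 7.06 FPKM in the controls and 9.59 and 8.95 FPKM in the ETS1 libraries. That is a ratio of 1.37 and a log2 change of 0.40 (95% interval 0.26 to 0.55, adjusted p 0.00372), kept under all 14 alternatives. Of the ferritin chains, which store iron, the heavy chain FTH1 was higher and the light chain FTL lower. FTH1 had 44.0 and 51.5 FPKM in the controls and 63.1 and 64.1 FPKM in the ETS1 libraries, a log2 change of 0.41 (adjusted p 0.00885). The controls of FTH1 differed from each other by far more than its ETS1 libraries did, with an SD of 5.27 against 0.740 FPKM (n = 2 each), and with no filter on low genes the adjusted p was 0.0573. FTL went from 543 and 572 FPKM to 495 and 495 FPKM, a log2 change of -0.17 (adjusted p 0.0126). Its call was lost under 4 alternatives, and under quantile normalization the change was -0.021 (adjusted p 0.434). Per length, FTL was 12.3 and 11.1 times as abundant as FTH1 in the controls and 7.85 and 7.72 times in the ETS1 libraries.

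The FTH1 value carries a further limit. The table lists 25 pseudogenes named after FTH1, whose summed level was between 73.4 and 80.2 FPKM in each library, more than the gene itself, and reads of near-identical copies can be split or dropped in counting. In GENCODE 29, 62.4% of the FTH1 exon bases also lie in exons of BEST1 on the opposite strand, and the use of strand is not given in the sources used here. BEST1 was at 1.34 and 1.45 FPKM in the controls and 2.98 and 3.07 FPKM in the ETS1 libraries.

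Glutathione is made in 2 steps and kept reduced by glutathione reductase. The reductase gene GSR (chromosome 8, 30678061 to 30727999, minus strand) fell from 24.6 and 25.4 FPKM to 15.97 and 15.87 FPKM. This was a fall of 36.4% in FPKM and a log2 change of -0.62 (95% interval -0.70 to -0.54, adjusted p 0.000482), with the groups far apart. Tested genes on chromosome 8 had a median change of -0.165, and with the chromosome median removed the change of GSR was -0.46 (adjusted p 0.000303). GSS, which carries out the second step of glutathione synthesis, fell from 41.0 and 40.4 FPKM to 33.9 and 33.7 FPKM, a log2 change of -0.26 (adjusted p 0.00159), or -0.15 under quantile normalization (adjusted p 0.00840).

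The first and limiting step is catalysed by an enzyme of a catalytic and a modifier subunit. The catalytic subunit GCLC had 3.75 and 3.88 FPKM in the controls and 3.67 and 3.98 FPKM in the ETS1 libraries, so its groups overlapped. Its log2 change was 0.0028 with a 95% interval of -0.13 to 0.13. The modifier subunit GCLM rose from 3.25 and 2.84 FPKM to 3.60 and 3.87 FPKM, a log2 change of 0.23 (adjusted p 0.0367). That call was lost under 7 of 13 alternatives, with an adjusted p of up to 0.154, and leaving out control library 2 or either ETS1 library ended it. The difference between the subunits was not tested.

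The glutathione transferases, which join glutathione to electrophiles, held both the largest fall and one of the clearest rises. MGST1 (chromosome 12, 16347142 to 16609259, plus strand), a membrane-bound transferase that also reduces lipid peroxides, had 2.66 and 2.48 FPKM in the controls and 0.775 and 0.882 FPKM in the ETS1 libraries, from 667, 681, 276 and 310 reads. The FPKM fell by 67.8%, and the log2(FPKM + 1) change was -0.97 (95% interval -1.13 to -0.80, adjusted p 0.000711). Because 1 FPKM is added before the logarithm, this understates a gene so low. The change was -1.53 with 0.1 FPKM added, -1.66 with voom on recovered reads and -1.64 in the authors' deposited table. GSTP1 (chromosome 11, 67583595 to 67586656, plus strand), the main cytosolic transferase of many epithelial tumours, went from 83.2 and 84.2 FPKM to 114 and 111 FPKM. Its log2 change was 0.42 (95% interval 0.35 to 0.49, adjusted p 0.000735), and it passed under all 14 alternatives.

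Of the other transferases, GSTA4, which clears lipid aldehydes, fell by 0.17 on the log2 scale (adjusted p 0.0306), but lost the call under 6 of 14 alternatives, among them quantile normalization (-0.064) and leaving out either control library or ETS1 library 2 (-0.11 without the latter). GSTM3, GSTM4, GSTO1 and MGST3 did not pass, with log2 changes between -0.079 and 0.044. GSTO1 passed as higher under quantile normalization (0.10, adjusted p 0.0341) and as lower with its chromosome median removed (-0.12, adjusted p 0.0239). Pseudogenes named after GSTM3 summed to between 186% and 223% of its own FPKM, so its level is uncertain. In all, 1 of the 7 tested transferases was higher, 2 were lower and 4 did not pass, where 30.7% of all tested genes were higher and 28.4% lower.

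**Figure D3:**
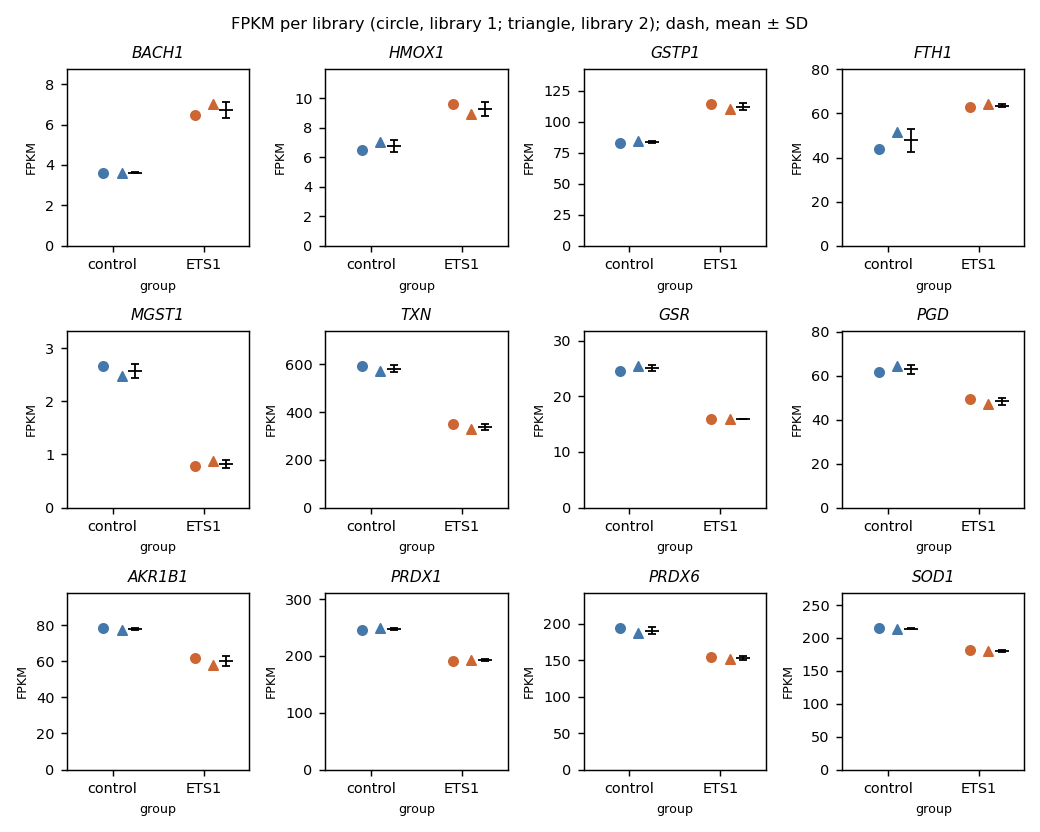
FPKM in each library for 12 of the named genes, with the mean ± SD of each group (n = 2) beside the points and each axis starting at 0. The 12 were chosen among the called genes, so the gap between the groups in each panel is no further result. The groups did not overlap for 82.0% of all tested genes. BACH1, HMOX1, GSTP1 and FTH1 are higher in the ETS1 libraries and the other 8 are lower.

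Glutathione peroxidases use glutathione to reduce peroxides. GPX4, which protects membranes from lipid peroxidation and so from ferroptosis, had 190.5 and 204.0 FPKM in the controls and 187.7 and 179.3 FPKM in the ETS1 libraries. The groups did not overlap, but the gap was small beside the spread of the controls, and the log2 change of -0.10 did not pass (95% interval -0.22 to 0.01, adjusted p 0.107). GPX4 passed in the authors' deposited table (-0.12, adjusted p 0.0111) and with voom on recovered reads (adjusted p 0.0133). Its log2 change was -0.15 without control library 1, -0.054 without control library 2 and 0.074 under quantile normalization. GPX1, the abundant cytosolic enzyme, was at 124 and 126 FPKM in the controls and 128 and 128 FPKM in the ETS1 libraries and did not pass (0.040, adjusted p 0.232). Pseudogenes named after GPX1 summed to between 22.2% and 25.8% of its own FPKM, so its level is uncertain too. Under quantile normalization GPX1 passed as higher (0.20, adjusted p 0.00261). GPX8, an enzyme of the endoplasmic reticulum, rose by 0.18 (adjusted p 0.00786), but not once its chromosome median was removed (0.084, adjusted p 0.0662) or without ETS1 library 2. GPX2, a gut-type peroxidase and NRF2 target, had 5, 2, 9 and 6 reads and was not tested.

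The thioredoxin system works beside glutathione, and its most abundant transcript showed one of the largest falls. TXN (chromosome 9, 110243811 to 110256640, minus strand) dropped from 592 and 571 FPKM to 348 and 329 FPKM. This was a fall of 41.8%, with a log2 change of -0.78 (95% interval -0.88 to -0.68, adjusted p 0.000505). Tested genes on chromosome 9 had a median change of -0.105. TXN was at -0.67 with that median removed and at -0.59 under quantile normalization, and it passed under all 14 alternatives. TXNRD1, which reduces thioredoxin and is a direct NRF2 target, had 18.7 and 18.4 FPKM in the controls and 17.3 and 17.8 FPKM in the ETS1 libraries, a log2 change of -0.075 that did not pass (adjusted p 0.0927). It passed under 3 alternatives, of which removal of the chromosome median gave -0.15 (adjusted p 0.00966). Per length there was 31.6 and 31.1 times as much TXN as TXNRD1 in the controls and 20.1 and 18.5 times in the ETS1 libraries.

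TXN2, the mitochondrial thioredoxin, fell by 0.16 on the log2 scale (adjusted p 0.00992), but was at 0.012 under quantile normalization (adjusted p 0.717). Without ETS1 library 2 its call was lost. TXNIP, which binds and inhibits thioredoxin, had 8.01 and 8.30 FPKM in the controls and 8.86 and 8.60 FPKM in the ETS1 libraries and did not pass (0.087, adjusted p 0.0967, and at least 0.0902 under each alternative). SRXN1, which repairs overoxidized peroxiredoxins and is a sensitive NRF2 target, had 14, 12, 20 and 13 reads and was not tested. In GENCODE 29, 85.0% of its exon bases are shared with another gene on the same strand, where reads may be assigned to neither, so its low level is uncertain.

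Most peroxiredoxins reduce hydrogen peroxide with electrons from thioredoxin, and as a group the 6 examined here were among the most abundant transcripts. Their summed level was 974 and 964 FPKM in the controls and 856 and 855 FPKM in the ETS1 libraries. None of the 6 rose, 3 fell and 3 did not pass. All 6 had a mean above 50 FPKM, where 60.6% of all tested genes were lower and 15.1% higher, so this share is near that of other abundant genes. PRDX1, the main cytosolic form, fell from 246 and 249 FPKM to 191 and 194 FPKM, a log2 change of -0.36 (adjusted p 0.000782). PRDX6, which also reduces phospholipid peroxides, fell from 194 and 187 FPKM to 155 and 151 FPKM, a log2 change of -0.31 (adjusted p 0.00158). PRDX4, the form of the endoplasmic reticulum, fell by 0.19 (adjusted p 0.00832).

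The peroxiredoxin falls shrank under quantile normalization, to -0.17 for PRDX1 (adjusted p 0.00426), -0.078 for PRDX6 (adjusted p 0.0437) and -0.027 for PRDX4, which no longer passed (adjusted p 0.479). With its chromosome median removed PRDX4 was at -0.29 (adjusted p 0.00136). Under quantile normalization PRDX2 (0.14, adjusted p 0.0182) and PRDX3 (0.16, adjusted p 0.0116) were higher, so the direction of the group as a whole depends on how the libraries are scaled. In the main analysis the cytosolic PRDX2 and the mitochondrial PRDX3 had overlapping groups, with log2 changes of -0.0023 and 0.0047, and PRDX5 was at -0.059 (adjusted p 0.104). PRDX5 passed as lower with its chromosome median removed (-0.094, adjusted p 0.0246) and with voom (-0.082, adjusted p 0.0302). In GENCODE 29, 24.9% of the PRDX1 exon bases also lie in exons of MMACHC on the opposite strand, which was at most at 6.03 FPKM. For NFE2L2, MAFK, PRDX2, NQO1, CBR1 and OSGIN1, between 13.9% and 18.9% of the exon bases are shared with a single other gene. That gene is on the same strand for NFE2L2 and OSGIN1 and on the opposite strand for the others.

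Superoxide dismutases turn superoxide into hydrogen peroxide, and catalase breaks the peroxide down. SOD1, the cytosolic copper-zinc enzyme, fell from 215 and 214 FPKM to 181 and 180 FPKM, a log2 change of -0.25 (adjusted p 0.00165). Quantile normalization reduced this to -0.086 (adjusted p 0.0258). SOD2, the mitochondrial manganese enzyme, had 7.18 and 6.85 FPKM in the controls and 6.70 and 7.05 FPKM in the ETS1 libraries, with overlapping groups and a log2 change of -0.027 (95% interval -0.14 to 0.09). CAT rose from 6.22 and 6.04 FPKM to 7.40 and 7.18 FPKM, a log2 change of 0.22 (adjusted p 0.00681) that passed under all 14 alternatives, with adjusted p-values up to 0.0485.

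NADPH is the electron source for both thiol systems. The 3 pentose phosphate genes among the 55 fell, where 28.4% of all tested genes were lower. Of all tested genes with a mean of at least 50 FPKM, 60.6% were lower. PGD, which makes NADPH in the oxidative branch (chromosome 1, 10398592 to 10420144, plus strand), went from 61.5 and 64.2 FPKM to 49.5 and 47.2 FPKM, a log2 change of -0.37 (adjusted p 0.00170). TALDO1 and TKT, of the non-oxidative branch, fell by 0.23 and 0.19 (adjusted p 0.00358 and 0.0115). Quantile normalization gave -0.22 for PGD (adjusted p 0.00961), -0.11 for TALDO1 (adjusted p 0.0360) and -0.093 for TKT, which lost its call there (adjusted p 0.0810) and without ETS1 library 2. IDH1 and ME1, cytosolic enzymes that make NADPH from isocitrate and malate, were higher by 0.18 and 0.15 (adjusted p 0.00798 and 0.0249). The rise of ME1 was lost under 9 of 14 alternatives, including the authors' deposited table (adjusted p 0.155) and each fit without 1 library. With the chromosome median removed it was 0.080. That of IDH1 was lost with the chromosome median removed (0.092, adjusted p 0.0562) and without ETS1 library 1.

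Of the 9 carbonyl and quinone genes only 4 were tested, of which 2 were lower and 2 did not pass, where 28.4% of all tested genes were lower. AKR1B1, the aldose reductase, fell from 78.3 and 77.2 FPKM to 61.94 and 57.95 FPKM, a log2 change of -0.37 (adjusted p 0.00185), or -0.21 under quantile normalization (adjusted p 0.00833). CBR1, a carbonyl reductase, was lower by 0.090 (adjusted p 0.0385), a call lost under 8 of 14 alternatives, including each fit without 1 library. It was at -0.016 under quantile normalization and at -0.17 with its chromosome median removed (adjusted p 0.00385). NQO1 did not pass, with overlapping groups and a 95% interval of its log2 change from -0.12 to 0.15. UGDH, which makes the UDP-glucuronate used in conjugation, did not pass either (-0.059, adjusted p 0.346), although it was lower with its chromosome median removed (-0.17, adjusted p 0.0272). ALDH3A1, an aldehyde dehydrogenase, was under the filter at 0.676 and 0.514 FPKM in the controls and 0.859 and 0.726 FPKM in the ETS1 libraries, and the authors' deposited table gives it an adjusted p of 0.191.

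The AKR1C genes and AKR1B10 were nearly silent in both groups, with a few more reads in the ETS1 libraries. AKR1C2 had 0 and 0 control reads against 12 and 15, at least 6.68-fold higher per read sequenced against a floor of 3 reads over the control group when its ETS1 reads are taken as exact, and the exact 95% counting interval of the ratio starts at 5.07. AKR1C3 had 0 and 0 against 7 and 1 reads, and since nearly all of these came from 1 library no fold is given. AKR1C1 had 1 and 2 against 8 and 7 reads, a ratio of 3.71 with an exact 95% counting interval of 1.05 to 20.0. AKR1B10 had 0 and 4 against 14 and 9 reads, a ratio of 4.27 (1.46 to 17.0). These intervals cover counting error only, not the spread between libraries. The AKR1C genes are near-identical copies, so reads can be split among them, and at these levels none could be tested.

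Of the remaining genes, the drug and glutathione-conjugate exporter ABCC1 did not pass (-0.027, adjusted p 0.496). Its relative ABCC2 had 112 and 107 control reads against 146 and 154, a ratio per read sequenced of 1.02 (exact 95% counting interval 0.852 to 1.22). OSGIN1, an oxidative stress-induced growth inhibitor, had 25 and 36 against 25 and 33 reads, a ratio of 0.706 (0.484 to 1.03). Both were under the filter.

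**Figure D4:**
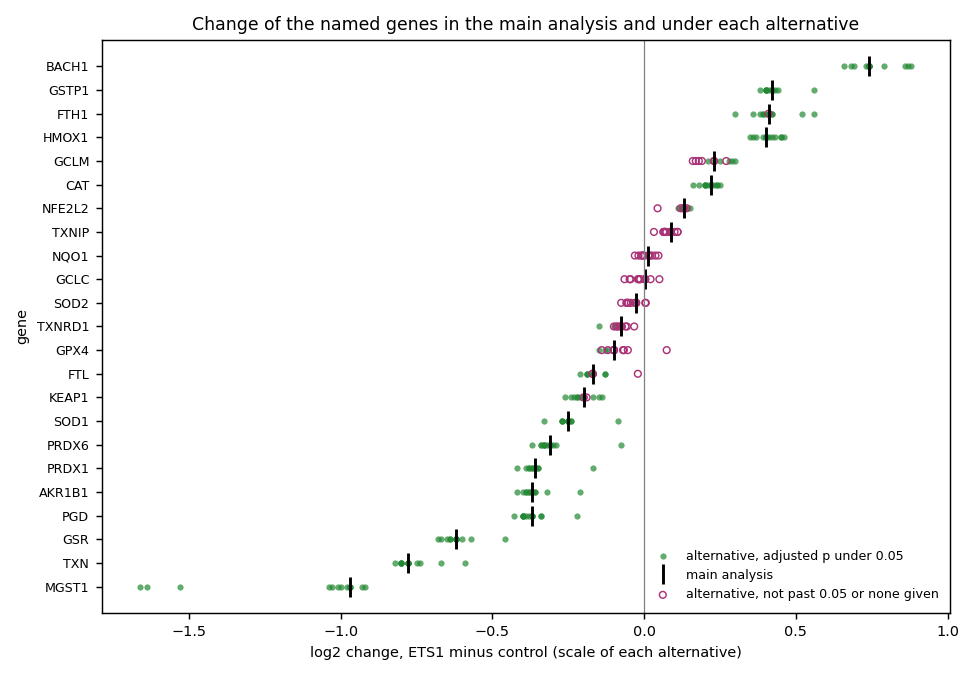
Log2 change of the 23 named tested genes in the main analysis (black bar) and under each alternative (green, adjusted p under 0.05; open, not past it). BACH1, GSTP1 and HMOX1 on the right and TXN, GSR and MGST1 on the left stay past the threshold under each alternative, while GCLM, NFE2L2, KEAP1 and FTL do so under some only.

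A further list of 68 NRF2 and redox genes that were not among the 55 was examined in the same fit. Of its 62 tested genes 14 were higher, 20 were lower and 28 did not pass, where 30.7% of all tested genes were higher and 28.4% lower. The median over these 62 was -0.034 on the log2 scale. The largest change was that of ABCC3, an exporter of organic anions and glutathione conjugates, which went from 2.14 and 2.12 FPKM to 10.1 and 10.1 FPKM, a log2 change of 1.82 (adjusted p 0.000207). SLC7A11, the cystine importer that supplies glutathione synthesis, rose from 5.28 and 5.12 FPKM to 7.92 and 8.24 FPKM, by 0.55 on the log2 scale (adjusted p 0.000771). SQSTM1, which draws KEAP1 into autophagy, rose by 0.29 (adjusted p 0.00233).

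The others of the 6 largest called changes on the log2(FPKM + 1) scale were falls. The heme transporter SLC48A1 fell by 0.56, MTHFD1, a cytosolic folate enzyme, by 0.54, PGAM5, a mitochondrial phosphatase that binds KEAP1, by 0.53, and the microsomal transferase MGST2 by 0.50 on the log2 scale, with adjusted p-values of at most 0.00130. Thioredoxin reductase was represented by 2 further genes. The mitochondrial TXNRD2 was lower (-0.36) and TXNRD3 higher (0.39, or 1.56-fold in FPKM), with adjusted p-values of 0.00243 and 0.0156. Both were chosen after their values were seen. Among the 19 tested genes of cystine uptake and glutathione handling, 3 were higher and 9 lower, where 30.7% and 28.4% of all tested genes were. Of the 9 other NADPH genes 3 were higher and 2 lower, of the 11 genes of NRF2 control 3 and 1, and of the 23 further NRF2 targets 5 and 8.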

How the data were processed

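Bulk RNA-seq of 4 TE5 libraries was analysed, 2 per group. The authors deposited FPKM for 55764 gene names and a comparison table of 16652 genes. HISAT2, HTSeq, DESeq2 and the builds hg38 and GRCh38 are named in the submitters' processing notes; versions, annotation and use of strand are not given in the sources used here. The mean normalized count in the deposited table is a signal the authors averaged over the 4 libraries, per the file headers. The authors' log2 fold changes, standard errors, p-values and adjusted p-values come from that deposited table, per the file headers.

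Here limma 3.58.1 (R 4.3.3) was fitted to log2(FPKM + 1) of the 14306 genes with a mean of at least 1 FPKM, with a group term, an intensity trend and Benjamini-Hochberg adjustment over all genes tested (two-sided, threshold 0.05). Adding 1 FPKM understates changes of low genes. No raw counts were used. Reads were recovered as the whole numbers that fit the FPKM and the mean normalized counts; of values of 2885 genes with a mean normalized count under 100, 99.1% came out whole to within 0.05, against 10% by chance and 36.4% for 8566 genes over 1000. For genes outside the comparison table the smallest matching whole numbers, scaled to the GENCODE 29 exon length, were used. Depth was 40356480 to 57270000 reads per library, and precision rests mainly on the 2 libraries per group. The fitting step was tested on simulated data, where small fold changes were often missed and false calls exceeded the threshold's share.

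The genes and lists were chosen with earlier results of these data known. Values in every library are given for called genes with an absolute log2 change of at least 0.3 and for 19 core genes. Beyond that rule they are also given for NFE2L1, GSS and GPX1, and as FPKM or reads for genes under the filter. Of the further list, SLC7A11, SQSTM1 and the 6 largest called changes are named, and genes of that list named beyond this are marked. Another gene under this rule and 1 gene of the planned immune marker list are not reported here, so the immune sum covers only part of that list. Alternatives were other pseudocounts, filters and scalings, a replicate block, a constant prior variance, removal of chromosome medians, the authors' values and leaving out each library. A voom fit to the recovered reads was added after the data were seen.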

Additional observations from a re-analysis of the deposited data

How the results depend on the processing

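With 2 libraries per group, each fit without 1 library leaves a group with a single library, which is assumed to vary like the others. Over all tested genes each such fit called fewer genes than the main fit, both higher and lower, and the fewest of each without ETS1 library 2. Fewer calls among the redox genes in these fits therefore went with fewer calls everywhere. Of the 29 called redox genes, 15 kept their call and direction under all alternatives run, and of the 16 others 8 never passed in either direction. Leaving out 1 library gave 7 to 11 higher and 11 to 16 lower redox genes, with ETS1 library 2 lowering both most (7 and 11). Among all tested genes it gave 2845 to 3962 higher, the lowest without ETS1 library 2, and redox medians of -0.057 to -0.025. Removal of the chromosome median gave 7 higher redox genes, quantile normalization gave 11 lower ones, and a minimum mean of 5 FPKM gave 2562 higher genes in all because fewer genes were tested. The median change of the redox genes was -0.002 with no filter, -0.074 with median-of-ratios scaling, -0.021 with quantile normalization, -0.080 with chromosome medians removed, -0.082 with voom and -0.052 in the authors' deposited table, and the cause was not tested. Deviations of same-numbered libraries had a correlation of -0.0456 across genes, and of -0.118 across genes with a mean of at least 5 FPKM. These correlations gave no sign of a batch shared by replicate number. The replicate block gave 9 higher and 15 lower redox genes. Of all 14306 tested genes it gave 3712 higher and 3571 lower, against 4394 and 4057 without the block. A block leaves less of the data for judging spread, so fewer calls cannot tell whether a batch was shared.

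The sign changed for genes that had not passed, and for TXN2. Under quantile normalization GCLC was at -0.048, GSTM3 at -0.053, GSTO1 at 0.10, GPX4 at 0.074, TXN2 at 0.012, PRDX2 at 0.14, PRDX5 at 0.015 and NQO1 at -0.031. With median-of-ratios scaling GCLC was at -0.013, GSTM3 at -0.0066, PRDX3 at -0.015 and NQO1 at -0.00017. With chromosome medians removed GCLC was at -0.065, GSTM3 at -0.045, MGST3 at -0.011, PRDX2 at 0.034 and PRDX3 at -0.053. With voom GCLC was at -0.021, GSTM3 at -0.012, PRDX3 at -0.019 and NQO1 at -0.0059, and in the authors' deposited table they were at -0.018, -0.010, -0.018 and -0.0030. Without 1 library, GCLC ranged from -0.045 to 0.050, GSTM3 from -0.024 to 0.045, PRDX2 from -0.037 to 0.033, PRDX3 from -0.024 to 0.034, SOD2 from -0.059 to 0.0053 and NQO1 from -0.019 to 0.047. In each case the cause was not tested.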
